A study of Drosophila melanogaster with 2 samples.

Results

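The spliced annotated noncoding RNA genes were the genes that the deposited annotation classes as ncRNA and that have at least 1 transcript with 2 or more exons. Genes on the unplaced sequences U and Uextra and the dosage compensation RNAs roX1 and roX2 were left out. This choice gave 402 genes of the 19391 loci in the expression table. Levels came from polyadenylated RNA of whole adult Drosophila melanogaster aged 3 to 5 days, in 1 female and 1 male library. Each library pooled 192 lines of the DGRP, the Drosophila Genetic Reference Panel, whose lines are inbred from a wild population. The lines were pooled before sequencing, with 200 ng of total RNA from each, so no value belongs to a single genotype. Apart from sex the labels describe both libraries in the same way, with flies kept on cornmeal, molasses and agar medium under alternating light and dark. As each sex has a single library, differences carry no replicate check and no p-value, and values describe these 2 libraries only.

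Noncoding RNA genes are transcribed and often spliced like messenger RNA genes, but their RNA is not known to be translated. Some act as the RNA itself, for example by binding proteins in the nucleus. Others are hosts: small nucleolar RNAs (snoRNAs), which guide the modification of ribosomal RNA, are cut out of their introns, or microRNAs (miRNAs) are cut from a primary transcript. A further number run antisense to a protein-coding gene, and many RNAs of this class in flies have no known role.

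The structure of these genes was simple. Of the 402 genes, 271 (67.4%) had at most 2 exons in any transcript, 83 had 3, 41 had 4 or 5 and 7 had 6 or more. Spliced protein-coding genes had a median of 4 exons, and 24.3% of those 11693 genes had at most 2. The median exonic length was 852 nt, with a range from 95 to 21710 nt (Hsromega), against a median of 1933 nt in spliced protein-coding genes. Introns were alike in length: the 789 distinct introns of the noncoding genes had a median of 104 nt and those of protein-coding genes 102 nt, and 48.9% and 49.6% were shorter than 100 nt. A single transcript, new isoforms included, was listed for 249 genes, and the authors' assembly added 72 new isoforms to 56 of the 402 (13.9%), against 16.9% of spliced protein-coding genes with a new isoform.

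The levels are the FPKM that the authors deposited, which scale fragments by transcript length and library size. Both libraries carried the marker genes of their labelled sex. Yolk protein gene Yp1 had 4160 FPKM in females and 189 FPKM in males, and the seminal sex peptide gene Acp70A had 0.790 and 2782 FPKM. Markers of somatic tissue were present in both, with, in that order, 123 and 428 FPKM for muscle myosin Mhc and 3.60 and 9.25 FPKM for the neuronal gene elav. In the low values of the female library a common step matched about 84.7 fragments for 1 FPKM over 1 kb. No such step was found in the male library, whose depth is therefore unknown.

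Most spliced noncoding RNA genes were low, and males had the larger number above the detection level. In the female library 107 genes (26.6%, Wilson 95% interval 22.5 to 31.1%) had at least 1 FPKM, a level that 52.5% of all loci reached. The male library had 273 genes (67.9%, interval 63.2 to 72.3%) at that level, against 70.8% of all loci. Thus the share of these genes detected was about that of all loci in males and lower in females. Both libraries reached 1 FPKM at 93 genes, the female library alone at 14, the male library alone at 180 and neither at 115. Median levels were 0.148 FPKM in females and 2.24 FPKM in males, while spliced protein-coding genes had medians of 14.2 and 14.7 FPKM. Single-exon noncoding RNA genes were lower still, with medians of 0.0310 and 1.98 FPKM. Together the 402 spliced noncoding RNA genes made up 0.366% of all FPKM summed in females and 0.828% in males. In whole-body RNA, fewer cells of a type and less RNA per cell cannot be told apart.

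The sex ratio was taken as log2((female FPKM + 1)/(male FPKM + 1)), in which the added 1 FPKM understates the difference of low genes. A gene was counted as higher in a sex when it had at least 1 FPKM in 1 library and was 2-fold or more apart on this scale. Of the 402 genes 287 reached 1 FPKM in a library. Among these 32 (11.1%) were higher in females, where 21.5% of all loci tested were, and 180 (62.7%) were higher in males, where 40.7% of all loci tested were. The median ratio was −1.50 (order-statistic 95% interval over genes −1.75 to −1.31), against −0.58 over all 14108 loci tested, −0.30 over spliced protein-coding genes and −1.73 over single-exon noncoding RNA genes. Centring the ratios on the median of all loci tested gave 51 higher in females and 138 in males. Setting the medians of ribosomal protein genes equal gave 12 and 224, with a median of −1.89 over members and −1.25 over all loci tested. The shares of all loci called on these scales are not given here, so these counts have no background beside them. At 4-fold, 10 (3.48%) were higher in females, beside 7.6% of all loci, and 105 (36.6%) in males, beside 20.3%. A gene that passed only through the male library had to be lower in females, so these counts rest in part on the minimum. Over the 93 genes with 1 FPKM in both libraries, 24 (25.8%) were higher in females, beside 28.1% of all such loci, and 20 (21.5%) in males, beside 24.3%. Their median ratio was −0.02 (interval −0.33 to 0.49), against 0.17 over all such loci. At 4-fold, 7 of the 93 (7.53%) were higher in females, beside 9.52%, and 5 (5.38%) in males, beside 5.07%. At 16-fold, none was higher in females, beside 0.918%, and 1 (1.08%) was higher in males, beside 0.898%.

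**Figure D1:**
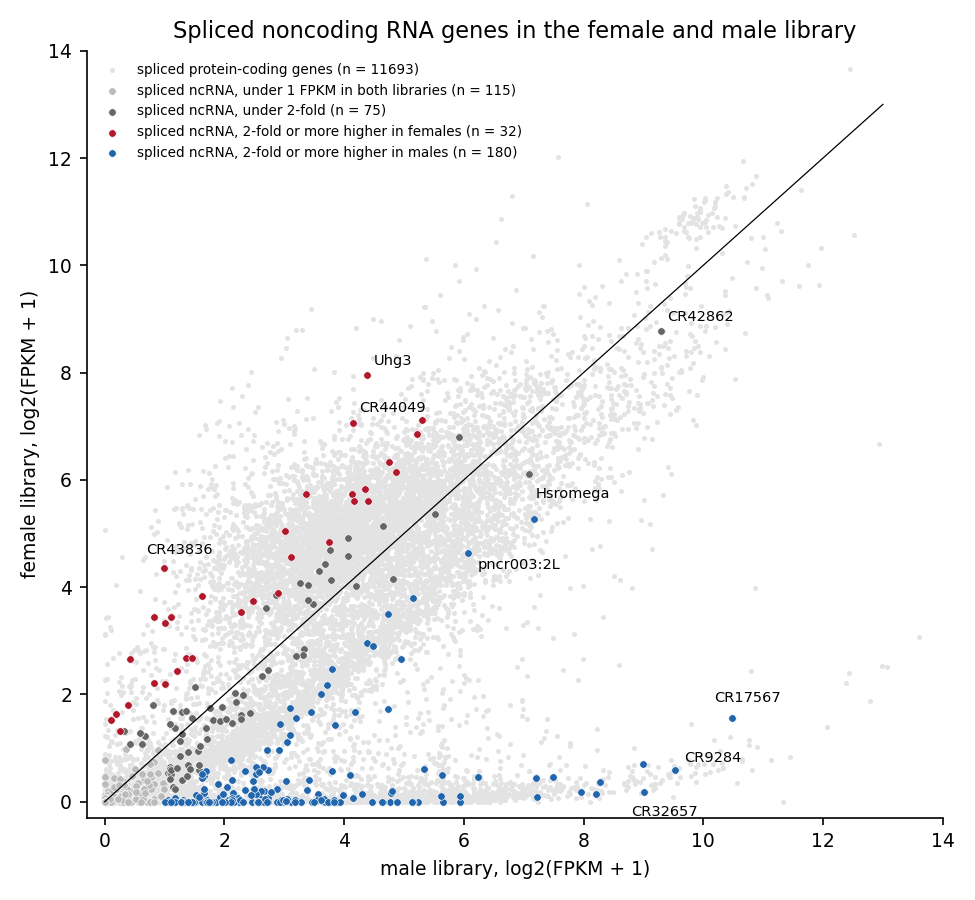
Level of each spliced noncoding RNA gene in the male library (horizontal axis) and the female library (vertical axis), both as log2(FPKM + 1), coloured by call, over the spliced protein-coding genes in light grey; the line marks equal levels. The 180 genes higher in males lie mostly along the bottom, with little or no RNA in females, while the 32 genes higher in females lie closer to the line.

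At each level the share higher in males was above that of protein-coding genes of like level, though in the highest group, of 18 genes, the Wilson interval (38.6 to 79.7%) held the protein-coding value. Genes were grouped by the FPKM of their higher library. From 1 to 3 FPKM, 52 of 98 spliced noncoding RNA genes (53.1%) were higher in males, against 31.6% of spliced protein-coding genes. Between 3 and 10 FPKM it was 68 of 91 (74.7%) against 53.5%. From 10 to 100 FPKM 49 of 80 (61.3%) were higher in males, against 30.5%, and at 100 FPKM or more 11 of 18 (61.1%), against 41.0%. Over all loci the shares were 44.1%, 56.0%, 34.9% and 44.5% in the same order. The interval of the members held the share of all loci in the lowest group (43.3 to 62.6%) and in the highest. Single-exon noncoding RNA genes were higher in males in 76.3%, 88.9%, 67.3% and 71.4% of cases in the same order. The last of these groups held 7 genes. Most members entered these groups through the male library alone, and with 1 FPKM in both libraries 21.5% of members and 24.6% of spliced protein-coding genes were higher in males.

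**Figure D2:**
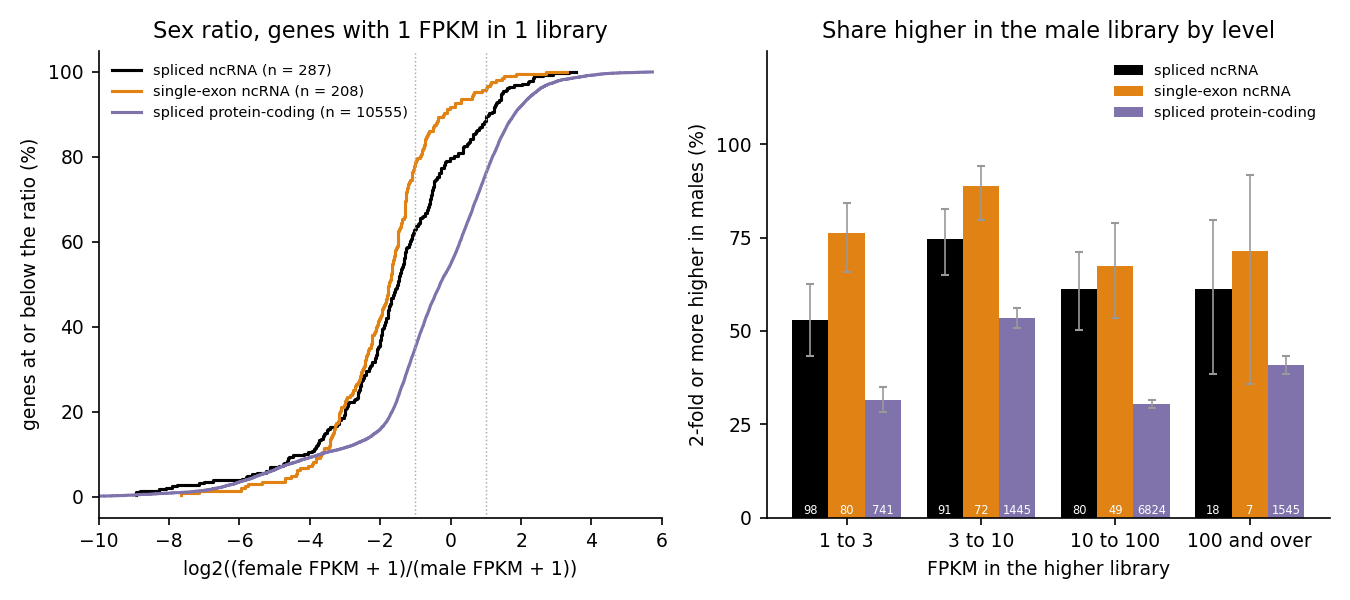
Left, cumulative share of genes by the log2 ratio of female to male level, for genes with at least 1 FPKM in 1 library, with dotted lines at 2-fold. Right, share of genes 2-fold or more higher in males by the FPKM of the higher library, with Wilson 95% intervals over genes and the number of genes at the foot of each bar; the black bars of spliced noncoding RNA genes stand above those of protein-coding genes in all 4 level groups.

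The best defined functional group among the members was that of the snoRNA hosts, and it went against the general direction. The 7 Uhg genes, named as host genes of U snoRNAs, carry the snoRNA genes in their introns while their exons have no known product. The annotation places 16 snoRNA genes in introns of Uhg1, 11 in Uhg5, 7 in Uhg4, 4 each in Uhg2 and Uhg8 and 3 each in Uhg3 and Uhg7. Uhg1, with up to 17 exons, and Uhg5, with up to 12, had the most exons of all 402 genes.

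All 7 Uhg genes had more RNA in the female library. Uhg3 (FBgn0259936; 2L, 20647533 to 20648848, release 5 coordinates, plus strand) had 246 FPKM in females and 20.0 FPKM in males, a 12.3-fold ratio of FPKM. With 1 FPKM added it had the highest log2 ratio of all members, 3.56. That rank depends on the added value, as CR43836 had a 19.6-fold ratio of FPKM. With 0.1 FPKM added, the log2 ratio was 4.16 for CR43836 and 3.62 for Uhg3. Uhg4 had 79.8 FPKM in females and 25.9 FPKM in males. Uhg5 had 69.7 and 28.1 FPKM. Uhg3, Uhg4 and Uhg5 are among the 8 highest members of the female library. Uhg1 had 52.6 FPKM in females and 16.6 FPKM in males, Uhg2 48.0 and 20.0 FPKM, and Uhg8 12.3 and 4.59 FPKM. Uhg7 was low, with 2.48 FPKM in females and 0.755 FPKM in males, and its log2 ratio of 0.99 fell just short of 2-fold. The other 6 of the 7 (85.7%) passed it, beside 21.5% of all loci tested.

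The median log2 ratio of the Uhg genes was 1.28, beside 0.93 over 92 ribosomal protein genes measured in the same libraries. With the medians of ribosomal protein genes set equal in both libraries, the Uhg median became 0.43, and Uhg3 alone of the 7 stayed above 2-fold, at 2.61, while the other 6 lay between 0.28 and 0.67. Exons of Uhg1, Uhg4, Uhg7 and Uhg8 overlap a protein-coding gene, and in Uhg7 one of these is the ribosomal protein gene RpL23A, so part of their fragments could belong to it. Uhg3 and Uhg5 overlap only snoRNA genes, and Uhg2 overlaps nothing. Outside the Uhg family, CR42491 and CR31647 each hold 1 snoRNA gene in an intron. CR42491 had 34.4 and 24.2 FPKM in females and males and overlaps exons of RpL22 by 377 nt, and CR31647 had 0.0183 and 0.0900 FPKM.

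**Figure D3:**
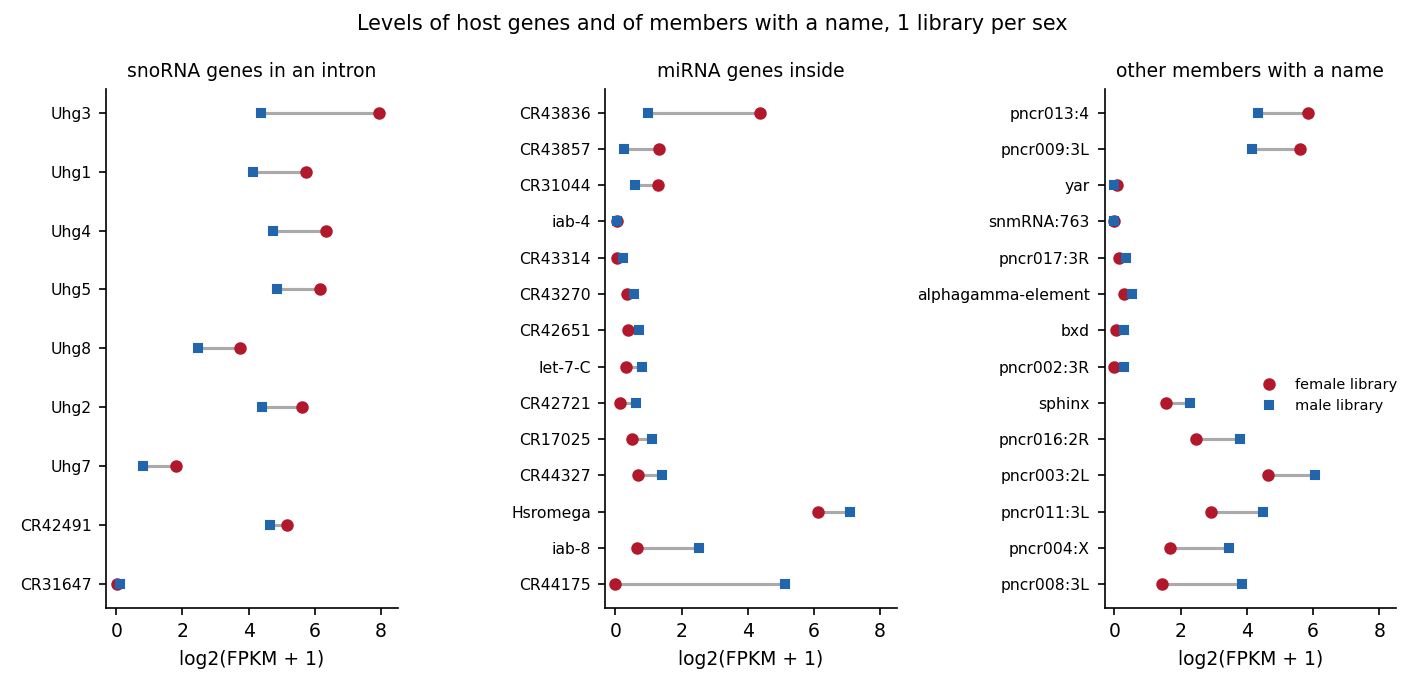
Level in the female library (circles) and the male library (squares) as log2(FPKM + 1) for members with a snoRNA gene in an intron, members with a miRNA gene inside, and the remaining members with a name of their own, ordered by ratio. The 7 Uhg genes have the circle to the right of the square, while the miRNA hosts are mostly near 0 and of mixed direction.

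Most hosts of miRNA genes were low, with Hsromega, CR44175 and CR43836 as exceptions, and the hosts had no common direction. A miRNA gene on the same strand lay within 14 members, in an exon or an intron, and 8 of these reached 1 FPKM. The median log2 ratio of those 8 was −0.66, with 2 (25%) higher in females and 2 in males, beside 21.5% and 40.7% of all loci tested. The let-7-C gene, which yields let-7, mir-100 and mir-125, regulators of developmental timing, had 0.260 FPKM in females and 0.765 FPKM in males. Primary miRNA transcripts are cut in the nucleus, so a low level of polyadenylated RNA need not mean a low level of miRNA. CR43836, with mir-31b in an intron, was the host with the highest female level relative to males, at 19.6 and 0.997 FPKM. Its exons overlap those of CG10962 and CG42388, with overlap on both strands. CR43857, which holds mir-275 in an exon, had 1.50 and 0.200 FPKM. The opposite end was CR44175, which holds mir-997 in an exon and was listed at 0 in females and at 34.2 FPKM in males. CR31044, with mir-279 and mir-996, had 1.43 and 0.498 FPKM, and CR17025, with mir-252, had 0.431 and 1.16 FPKM.

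The Hox gene cluster holds noncoding RNA genes that are known for acting on Hox genes during development. Among these iab-8, which lies beside abd-A and yields mir-iab-8, had 0.570 FPKM in females and 4.79 FPKM in males, a log2 ratio of −1.88. On the other strand iab-4, the source of mir-iab-4, overlaps exons of iab-8. It had 0.0347 and 0.0342 FPKM in females and males, and bxd, upstream of Ubx, had 0.0249 and 0.221 FPKM. Of the 3 genes iab-8 alone reached 1 FPKM. It had 14 transcripts, the most of all members, of which 2 were new isoforms of the authors' assembly.

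Hsromega, the heat shock RNA that organises nuclear omega speckles and holds mir-4951 in an exon, was abundant in both sexes. It had 68.3 FPKM in females and 136 FPKM in males, and its log2 ratio of −0.98 was just under 2-fold. The gene sphinx, which affects male courtship, had 1.92 FPKM in females and 3.87 FPKM in males. The RNA of yar, which lies beside the gene yellow, was listed at 0.0496 FPKM in females and 0 in males. It lies inside a run of 18 loci at the tip of the X that were all listed at 0 in males, so its male value is not a measure of its level. The alphagamma-element RNA had 0.222 and 0.433 FPKM.

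The 9 pncr genes (putative noncoding RNAs) ranged widely. Among the 7 with 1 FPKM, 5 were higher in males (71.4%, Wilson interval 35.9 to 91.8%) and 2 in females (28.6%, interval 8.22 to 64.1%). Both intervals held the 40.7% and 21.5% of all loci tested. The gene pncr003:2L has since been found to encode the sarcolamban peptides, which act on the calcium pump of muscle, and had 23.9 FPKM in females and 66.3 FPKM in males, a log2 ratio of −1.43. The muscle gene Mhc had a ratio of −1.79 in the same libraries. The role of muscle RNA in this difference was not tested. When both libraries were scaled to equal sums the ratio of pncr003:2L became −0.94, under 2-fold. The gene pncr016:2R had 4.57 and 12.9 FPKM, and its ratio was −0.87 on that scale. In the other direction pncr013:4 had 56.2 FPKM in females and 19.3 FPKM in males, and pncr009:3L had 47.7 and 16.9 FPKM. Exons of both overlap a protein-coding gene on the opposite strand, Asator in the case of pncr013:4 and CG32212 in that of pncr009:3L. With ribosomal protein genes set equal both fell under 2-fold, at 0.55 for pncr013:4 and 0.51 for pncr009:3L. The 3 genes pncr004:X, pncr008:3L and pncr011:3L had log2 ratios of −1.77, −2.42 and −1.58. All 874 exonic nt of pncr011:3L lie in exons of APP-BP1, at 30.2 and 55.6 FPKM.

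Later annotation, matched by identifier, listed few of these genes under another class. Of the 402 genes, 383 are still ncRNA in Ensembl release 115, 7 are protein-coding, 3 are pseudogenes and 9 are absent. The absent identifiers include those of pncr003:2L, CR17567, CR44101 and yar, whose present class could not be read in this way. The 7 that are now protein-coding are pncr004:X, pncr008:3L, pncr011:3L, pncr013:4, CR43610, CR43844 and CR43845. Of these, 6 (85.7%, Wilson interval 48.7 to 97.4%) were higher in males, beside 40.7% of all loci tested, and pncr013:4 in females. CR43845 had 0.412 and 48.8 FPKM and CR43610 0 and 26.3 FPKM in females and males. Only a CR number was carried by 377 members. Of these 270 were tested and 174 (64.4%) were higher in males, beside 40.7% of all loci tested. They make up most of the 287 tested members.

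At least 16-fold higher levels in males were found for 29 members (10.1%), close to the 11.3% of all loci tested. None was 16-fold higher in females, where 0.744% of all loci tested were. With 1 FPKM added, a gene under 15 FPKM in both libraries cannot be 16-fold apart, so low members could not be counted. From 10 to 100 FPKM 19 of 80 members (23.8%, Wilson interval 15.8 to 34.1%) were 16-fold higher in males, beside 14.7% of all loci at that level. At 100 FPKM or more it was 10 of 18 (55.6%, interval 33.7 to 75.4%), beside 21.6%. Of these 10, 5 lie in 1 stretch of the X described below, and the interval treats them as separate genes. Single-exon noncoding RNA genes had 12 of 49 (24.5%) and 2 of 7 (28.6%) in the same 2 level groups. CR17567 (FBgn0040994; 2L, 19183093 to 19183613, minus strand) was the highest member of the male library, with 1435 FPKM against 1.95 FPKM in females, a log2 ratio of −8.93. Its exons overlap those of gammaTub37C, a maternal gamma tubulin gene on the same strand, by 193 nt. That gene went the opposite way, with 70.4 FPKM in females and 2.14 FPKM in males. CR9284 (2R, 17690863 to 17691843) had 0.503 FPKM in females and 734 FPKM in males, and overlaps no other locus. CR32690 had 0.133 and 247 FPKM and CR43239 0.0604 and 148 FPKM in the same order. Testis and sperm tail genes in the same libraries had log2 ratios of −9.23 for Mst87F, −8.40 for dj and −2.32 for kl-3. The added 1 FPKM limits the ratio of kl-3, which had 0.0056 FPKM in females and 4.02 FPKM in males. The other male markers checked had ratios of −10.6 for Acp70A and −11.1 for Mst57Db. Whether these noncoding RNAs come from testis was not tested.

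Of the 29 genes, 9 lay on the X, and 5 of those in 1 stretch. The 9 were 23.1% of the 39 tested members on the X (Wilson interval 12.6 to 38.3%). This interval treats the 5 neighbours as separate genes, and the share rests in large part on that 1 stretch. Without the 5, 34 tested members on the X remain. On 2L, 2R, 3L and 3R it was 20 of 239 (8.37%), and over all loci tested on any arm 11.3%. The stretch (X, 11811839 to 11986305) spans 174467 nt, and its members were chosen for description after their values were seen. CR32661, CR43157 and CR32660 follow each other on the minus strand at one end. They had 309, 178 and 295 FPKM in males and 0.289, 0.379 and 0.0993 FPKM in females. At the other end CR32657 and CR32658 lie on the plus strand, with 512 and 507 FPKM in males and 0.132 and 0.629 FPKM in females. The stretch holds 34 loci in all, and those between the ends went both ways. CG15734, next to CR32657, had 0.130 FPKM in females and 33.4 FPKM in males, and CG18130 had 0.204 and 24.8 FPKM. Chrac-16, a chromatin assembly subunit, had 76.3 FPKM in females and 7.16 FPKM in males. The calcium channel gene cac had 6.36 and 18.3 FPKM. A sixth member in the stretch, CR43960, had 40.2 and 44.6 FPKM. Its exons overlap those of CR32657, and those of CR32660 overlap the protein-coding gene Sclp by 342 nt on the same strand. Whether fragments of the short genes were shared with these could not be told.

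**Figure D4:**
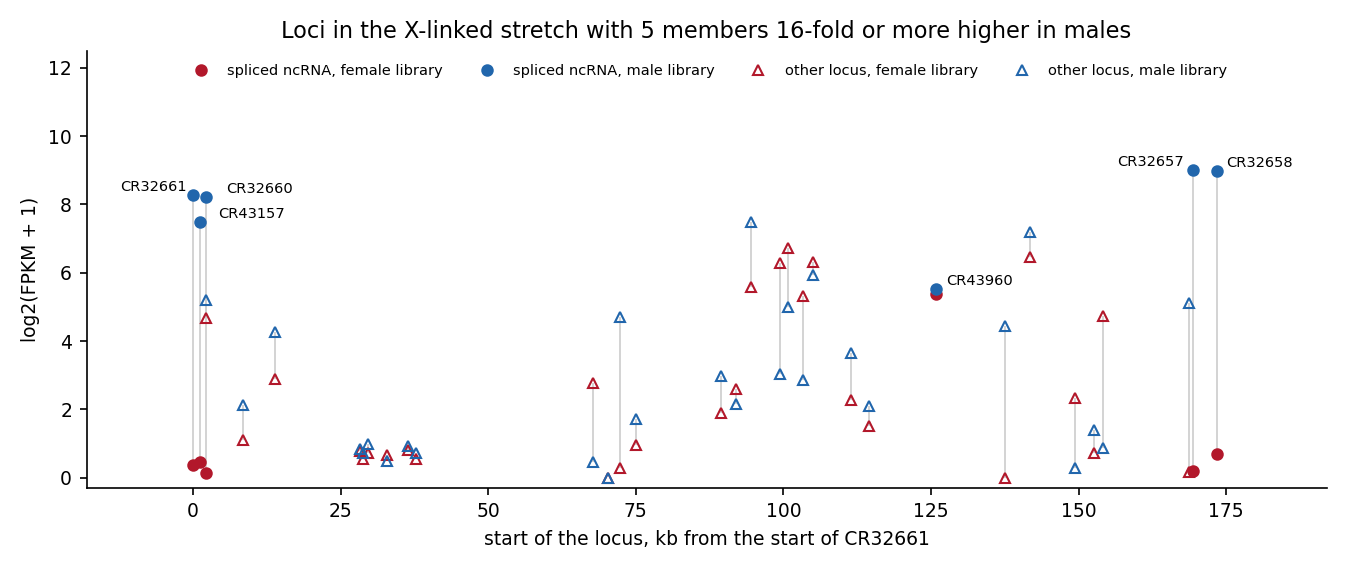
Levels as log2(FPKM + 1) of all 34 loci in the X-linked stretch, placed by their start in kb from that of CR32661; filled circles are spliced noncoding RNA genes and open triangles other loci, red for the female and blue for the male library, joined by a line. The 5 named members at the ends have male values of 178 to 512 FPKM and female values under 1 FPKM.

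Of the 180 genes higher in males, 75 were listed at 0 in females. Their male levels ran from 1.01 to 60.0 FPKM with a median of 3.30 FPKM, so most were low in males too. The 115 members that did not reach 1 FPKM in either library had medians of 0.0496 FPKM in females and 0.241 FPKM in males. Of them 100 were above 0 in males and 83 in females, and 9 were listed at 0 in both.

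Position relative to protein-coding genes went with the sex ratio. Outside protein-coding genes lay 168 members, of which 112 were tested, with a median log2 ratio of −1.89, 86 (76.8%) higher in males and 8 (7.14%) in females. Exons overlapped those of a protein-coding gene on the opposite strand alone in 121 members. Of these 88 were tested, with a median of −0.61. Among them 39 (44.3%, Wilson interval 34.4 to 54.7%) were higher in males and 16 (18.2%, interval 11.5 to 27.5%) in females, and both intervals held the 40.7% and 21.5% of all loci tested. The 45 tested members inside the span of a gene on the opposite strand without exon overlap had a median of −1.70, and the 16 inside a gene on the same strand −2.47. Same-strand exon overlap was found in 21 members, 18 of them tested, with a median of −0.70. Where 1 FPKM was required in both libraries, the median of opposite-strand members was 0.35 and that of members between genes −0.48, so the order of these 2 classes was kept.

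Overlap with another locus was less frequent among genes higher in males than among the other tested members. Among the 32, 22 (68.8%) had exons that overlap exons of another locus on either strand, small RNA genes included, against 52 (28.9%) of the 180 higher in males. Members under 2-fold overlapped another locus about as often, in 50 of 75 cases (66.7%). The files do not say whether strand was used in counting, and without strand the reads of 2 overlapping genes cannot be told apart. CR44049 (3R, 23085772 to 23087670) had 133 FPKM in females and 16.8 FPKM in males, and 1802 of its 1848 exonic nt overlap exons of woc, a zinc finger gene on the opposite strand. The values of woc itself were close to these, 107 and 14.6 FPKM. CR44155 had 52.4 and 9.29 FPKM, and 1536 of its 1748 nt overlap rpk, with 41.3 and 2.71 FPKM. CR31144 had 137 and 38.3 FPKM and shares 412 of 559 nt with RpL3, a ribosomal protein gene at 1740 and 773 FPKM. For these 3 genes a level of their own could not be separated from that of the partner. CR43460 had 5.31 and 0.346 FPKM, and 68 of its 1105 nt overlap rdx, at 465 and 33.5 FPKM.

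The other 10 members higher in females had no such overlap, and the examples given here include CR43685 and CR43973, chosen after their values were seen. CR32027 had 9.82 FPKM in females and 0.769 FPKM in males and lies within the span of Indy, a citrate transporter gene, on the opposite strand and outside its exons. Indy had 122 FPKM in both libraries. CR44101 had 9.88 and 1.16 FPKM and lies 284 nt from CG17486, at 61.7 and 36.2 FPKM. CR43837 had 9.12 and 1.02 FPKM inside the innexin gene Inx7, which had 16.7 and 22.2 FPKM. CR43685 had 22.6 FPKM in females and 7.67 FPKM in males, and its neighbour e(y)2b had 0.612 and 30.1 FPKM. In these 4 cases the ratio of the member was more than 2-fold above that of the protein-coding gene. In another, CR43973 inside CTPsyn, both were higher in females, at 13.2 and 2.10 FPKM for the member and 72.6 and 22.7 FPKM for CTPsyn.

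A few members were high in both sexes. CR42862 (FBgn0262109; 3L, 224106 to 230964, plus strand) had 435 FPKM in females, the highest of all members there, and 625 FPKM in males. Its log2 ratio was −0.52, which became 0.06 when ratios were centred on the median of all loci tested. A stretch of 246 nt of its 5485 exonic nt overlaps CG33229 on the same strand, at 73.1 and 31.6 FPKM. CR44114 had 110 and 59.3 FPKM and overlaps l(2)s5379 by 529 of 794 nt, and CR32207 had 115 and 36.1 FPKM. CR32207 shares exons with pncr009:3L, so their levels are not independent. The 8 highest members held 54.1% of the summed FPKM of all 402 in females and 59.2% in males.

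Ratios of the members were set beside those of the protein-coding gene nearest to each, or overlapping it most. In 270 pairs both were tested, and in 143 of these (53.0%, Wilson interval 47.0 to 58.8%) the call was the same, against 43.5% of 9885 pairs of a spliced protein-coding gene and its nearest protein-coding gene. The members of a pair share both libraries, and many share exons. For opposite-strand exon overlap the call was shared in 51 of 82 pairs (62.2%), with a Spearman rho of 0.54 across pairs, and the same arrangement of protein-coding genes gave 40.5% and a rho of 0.14. For members between genes 55 of 103 calls were shared (53.4%, rho 0.34), against 45.1% and 0.33. Of 166 members higher in males, 58 had a partner under 2-fold and 20 had a partner higher in females. For 3405 spliced protein-coding genes higher in males, these counts were 1138 and 586.

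Divergent pairs, in which the 5′ ends of a member and of a protein-coding gene on the other strand lie within 1000 nt and the genes do not overlap, do not share exons. Such pairs numbered 80 (19.9% of members), and in 56 both were tested. The call was the same in 31 (55.4%), with a Spearman rho of 0.58, against 46.4% and 0.22 among 3718 divergent pairs of protein-coding genes. Where both were called, 24 of 28 went the same way, beside 827 of 1081 (76.5%) for protein-coding genes. This comparison was added after the values were seen. Of the Uhg genes 5 had a divergent partner, and all 5 partners were higher in females: Bka beside Uhg2 at 35.6 and 10.5 FPKM, CG13741 beside Uhg4 at 96.6 and 5.16 FPKM, and CG5199 beside Uhg8 at 46.1 and 4.70 FPKM. CG12863 beside Uhg5 and rdgBbeta beside Uhg1 had log2 ratios of 1.35 and 1.59. Of the divergent pairs of protein-coding genes, 1361 of 3718 partners were higher in females. The gene nearest to Uhg3, CG18810 at 63 nt, went the other way, with 0.228 FPKM in females and 89.2 FPKM in males. Among pairs higher in males, CR43262 lies 74 nt from the serpin gene Spn28F, with log2 ratios of −3.02 and −8.16. CR43826 lies 32 nt from CG13245, with ratios of −2.74 and −8.96.

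**Figure D5:**
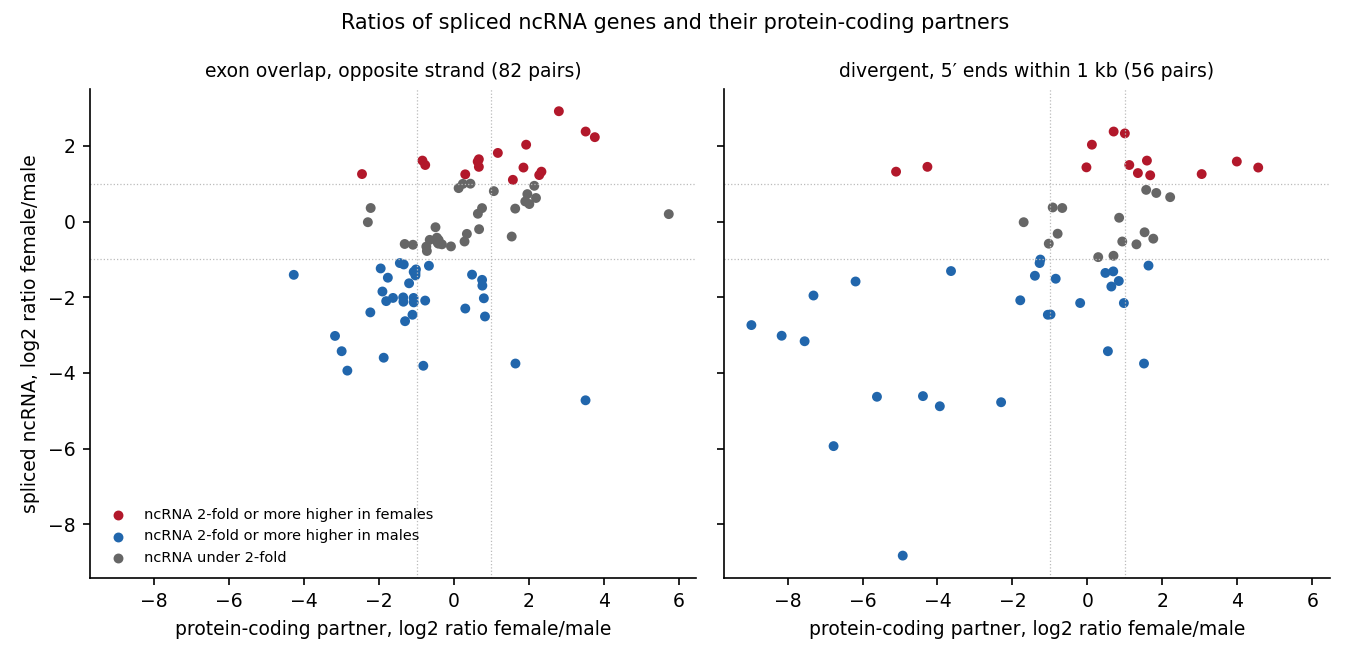
Log2 ratio of female to male level of spliced noncoding RNA genes (vertical axis) and of their protein-coding partners (horizontal axis), 1 point per pair, coloured by the call of the noncoding gene, with dotted lines at 2-fold; left, 82 pairs with exon overlap on opposite strands, right, 56 divergent pairs without overlap. The ratios rose together in rank, with a Spearman rho of 0.54 on the left and 0.58 on the right. The call was shared in 51 of 82 pairs on the left and 31 of 56 on the right, and some points lie far from equal ratios.

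The medians of the X and of the large autosomal arms had overlapping intervals. On the X the median log2 ratio of the 39 tested members was −1.74 (interval −3.01 to −0.26), with 23 (59.0%) higher in males and 5 (12.8%) in females, beside 40.7% and 21.5% of all loci tested on any arm. On the arms 2L, 2R, 3L and 3R it was −1.50 over 239 tested members (interval −1.77 to −1.31). Both turned direction where 1 FPKM was required in both libraries, to 0.49 on the X and 0.10 on these autosomal arms. Without the 5 members of the X-linked stretch the X median was −1.50. Of the large autosomal arms 2L had the lowest median, −2.00, with 55 of 68 higher in males, and 3R the highest, −1.26, with 39 of 74. The 6 tested on chromosome 4 had a median of −0.42.

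Sex ratio was also set against exon number. Members with 2 exons had a median log2 ratio of −1.57 (187 tested), those with 3 exons −1.75 (61 tested) and those with 4 or 5 exons −1.21 (32 tested). The 7 with 6 or more exons had a median of 1.28, but 3 of those are Uhg genes. Besides Uhg1, Uhg4 and Uhg5 this group held pncr013:4, CR44109, iab-8 and CR42646, which has up to 8 exons and had 0.560 and 1.13 FPKM in females and males. The 46 tested members with a new isoform had a median of −1.54, close to that of all tested members.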

How the data were processed

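Polyadenylated RNA of 1 female and 1 male pool was sequenced as paired reads of 100 nt in 1 lane, per the labels. The authors deposited a table of FPKM per locus and an annotation of exon positions. TopHat2 2.0.8, Cufflinks 2.0.2 and build BDGP5 are named, without roles, per the submitters' processing notes. Use of strand and filters are not given in the sources used here. The deposited FPKM were used without rescaling, and BDGP6 coordinates were not used. Whole fragments could not be recovered: in the female library 57.6% of 380 checked values lay within 0.15 of a whole step, against 30% by chance, and in the male library 20.7% of 58. No count test was therefore made.

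Groups were taken from the labels. Ratios, medians and shares came from pandas 2.3.3 and numpy 2.4.6 under Python 3.11.15, with scipy 1.17.1 for intervals and rank correlations and matplotlib 3.10.9 for plots. The calling was run on simulated data in which only well expressed loci were changed, by large folds. That check does not cover changes near 2-fold or low members. With 1 library per sex no test between the sexes was possible. Intervals cover counting over genes only. Members and lists were chosen with earlier results of these data known. The text names members with a name of their own, the 8 highest in each library, the 8 highest and lowest ratios, hosts of small RNAs and the highest exon numbers, and others as examples chosen after their values were seen. Alternatives covered the pseudocount, the minimum, scaling, the fold threshold and the choice of members.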

Additional observations from a re-analysis of the deposited data

How the results depend on the processing

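With a pseudocount of 0.1 FPKM the median log2 ratio was −3.36 over members, −4.55 between genes, −3.49 on the X and −3.41 on the autosomal arms. With a minimum of 5 FPKM in 1 library, 54 members were detected in females and 137 in males, 98 were higher in males, and the medians over members, between genes and on the autosomal arms were −2.59, −3.18 and −2.59. With a minimum of 0.1 FPKM, 221 were detected in females and these medians were −0.89, −1.30 and −0.98. With no minimum, 295 were above 0 in females and they were −0.71, −1.05 and −0.80. Requiring 1 FPKM in both libraries left 20 higher in males. The medians over members and between genes were then −0.018 and −0.48, and 3 medians changed sign, to 0.35 for opposite-strand overlap, 0.49 on the X and 0.10 on the autosomal arms. This setting removes every gene detected in 1 sex alone.

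When both libraries were scaled to equal sums the opposite-strand median was −0.26 and 45.9% of calls matched those of the nearest gene. Centred ratios gave 51 members higher in females and medians of −0.92 over members, −0.028 for opposite-strand overlap, −1.31 between genes and −0.92 on the autosomal arms. With ribosomal protein genes set equal, 12 members were higher in females, the medians over members, Uhg genes and autosomal arms were −1.89, 0.43 and −1.92, and 64.6% of calls matched. The median over all loci was −0.13 with equal sums and −1.25 with ribosomal protein genes set equal. Shares of all loci called under these scalings are not given here. At 4-fold 10 members were higher in females and 105 in males, and 61.5% of calls matched. Without members whose exons overlap another locus, 34 were detected in females and 158 in males, 10 were higher in females and the median was −1.95. The cause of these shifts was not tested. The X median without the stretch of 5 members was an alternative chosen after seeing the data.

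No paired analysis was possible because each sex has 1 library. The depth of the male library is unknown, so no counting limit can be set on its zeros.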
